A study of Homo sapiens with 6 samples.

Results

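Interleukins are secreted proteins by which blood cells signal to one another, and each acts through receptor chains that mostly work as pairs. The genes examined here carry a symbol made of IL, a number and further letters or digits. This rule takes in interleukins, receptor chains, antagonists and binding proteins, and it found 85 of the 26485 genes listed. Measurements came from THP1, an established human acute monocytic leukemia cell line, exposed for 6 h to withaferin A (WFA), a steroidal lactone of the plant Withania somnifera, or to its vehicle DMSO. Sequencing used 6 libraries made from total RNA, 3 per group, from 3 independent experiments. The study's methods give the WFA concentration as 1 μM and the sample labels give 1 mM. All libraries come from 1 cell line without another treatment, so donor variation is not covered.

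As background, most interleukin receptors belong to a few classes. The IL-1 class, which includes the IL-18 receptor, carries an intracellular domain shared with Toll-like receptors and signals through MYD88 and IRAK kinases. The cytokine receptor classes of IL-2, IL-4, IL-6, IL-7, IL-10 and IL-12 have no kinase of their own and signal through JAK kinases and STAT transcription factors. Monocytes are known as a source of IL-1β and IL-18 and as cells that respond to IL-4, IL-6 and IL-10, whereas receptors for IL-2, IL-7 and IL-12 are best known from lymphocytes.

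Libraries held between 11006035 and 13872810 counts. The 15 monocyte markers examined were all tested, 3 being higher and 5 lower with WFA (53.3% called, against 50.5% of all tested genes), and LYZ, the lysozyme gene, had between 16905 and 25944 counts. Of 10 myeloid blast markers 5 were tested, and KIT and MYB fell (40% called). Markers of lymphocytes were low. CD3D, CD3E and CD3G had at most 3 counts in any library, KLRD1 and NCR1 had 0, and the summed T cell list ranged from 1.57 to 1.84 CPM (counts scaled to the size of their library) with DMSO and from 0.629 to 0.938 with WFA. The NK cell list ranged from 9.52 to 11.5 CPM and from 8.02 to 14.2 CPM, and the B cell list from 4.61 to 5.33 CPM and from 4 to 5.55 CPM. Among these lists CD5 and PAX5 fell and CD79B rose. Among erythroid markers all 4 were at 0. The summed list of fibroblast and epithelial markers lay between 1.20 and 1.83 CPM with DMSO and between 9.36 and 13.3 CPM with WFA, and the only one of its 7 genes tested was COL1A1, a collagen gene, with 3, 4 and 10 counts in the DMSO libraries and 107, 106 and 135 in the WFA libraries. COL1A2 was at 0 in each library.

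Of the 85 genes, 27 had enough counts to be tested, 12 exceeded 3 counts in some library but did not pass the filter on low counts, 17 had between 1 and 8 counts in total and at most 3 in any library, and 29 had no count. A count of 0 allows up to 3 counts, which is between 0.216 and 0.273 CPM in these libraries, and this covers counting error only. Receptors were measured far more often than their ligands. Of 38 receptor chains 20 were tested, of 40 ligands 4, and of 6 antagonists, decoys and binding proteins 2. The remaining tested gene, IL4I1, encodes a secreted L-amino acid oxidase that is named for its induction by IL-4 and is not an interleukin.

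**Figure D1:**
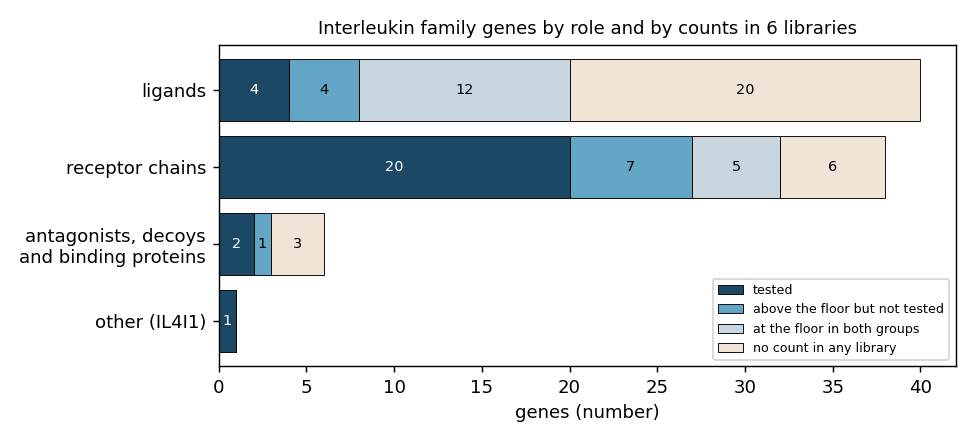
Bars give the number of genes in each role, divided by how they were counted over the 6 libraries, where the floor is 3 counts in a library. Receptor chains make up 20 of the 27 tested genes, and 20 of the 40 ligands have no count.

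Ligands without a count were IL2, IL3, IL4, IL6, IL7, IL9, IL13, IL17A, IL17B, IL17F, IL1F10, IL20, IL21, IL22, IL24, IL25, IL26, IL31, IL34 and IL36G. Receptor chains without one were IL1RL1, IL2RA, IL3RA, IL9R, IL17REL and IL1RAPL1, and the antagonist IL36RN and the decoys IL13RA2 and IL22RA2 had none either. A 0 in these data does not show that a gene was silent. IL3RA and IL9R lie in the pseudoautosomal regions that the X and Y chromosomes share, and 23 of 26 genes of these regions in the file had 0 counts in all libraries. RPS18, a ribosomal protein gene used by all cells, had at most 1 count. Members at the floor in both groups were the ligands IL1A, IL5, IL11, IL12B, IL17C, IL19, IL27, IL32, IL33, IL36A, IL36B and IL37 and the receptor chains IL1RL2, IL5RA, IL18RAP, IL22RA1 and IL23R. Of members above the floor but not tested, the ligand IL10 had 1, 0 and 4 counts with DMSO and 1, 1 and 0 with WFA. IL15 had 3, 1 and 2 counts and then 2, 9 and 6, and IL17D had 8, 3 and 6 and then 3, 2 and 5. The receptor chain IL17RD had 12, 9 and 7 counts with DMSO and 7, 9 and 6 with WFA, and IL1RAPL2 had 1, 1 and 2 and then 3, 2 and 6. The remaining 7 are described with their partners.

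Promoter sequences are given for 5 members on which the results turn, namely the receptor chains IL7R and IL12RB2 and the binding protein IL18BP, which rose, and the ligand IL1B and the receptor chain IL6R, which fell. Each window is from RefSeq on GRCh38.p14 and runs 5′ to 3′ along the gene's strand, from 250 bases before the annotated start to 50 bases from it. Capitals mark matches on either strand to 7 sequence motifs chosen after the results were known. These were TAACNG (c-MYB), GAANNTTC (heat shock element), TGACNNNGC (antioxidant response element), TGATGNAA (C/EBP-ATF element), the core of the interferon-stimulated response element, TTCNNNGAA (STAT site) and GAGGAA (PU.1). RefSeq lists 2 starts for IL12RB2 and 4 for IL18BP in this table, and which of them these cells used was not examined. The windows shown for both genes were picked after the matches were seen. The other IL12RB2 window holds none of the motifs, and the other 3 of IL18BP hold matches to TAACNG, GAANNTTC or GAGGAA. The windows are chr5:35856641-35856940 for IL7R on the plus strand, chr1:67307114-67307413 for IL12RB2 on the plus strand, chr11:71999367-71999666 for IL18BP on the plus strand, chr2:112836730-112837029 for IL1B on the minus strand and chr1:154405093-154405392 for IL6R on the plus strand.
IL7R: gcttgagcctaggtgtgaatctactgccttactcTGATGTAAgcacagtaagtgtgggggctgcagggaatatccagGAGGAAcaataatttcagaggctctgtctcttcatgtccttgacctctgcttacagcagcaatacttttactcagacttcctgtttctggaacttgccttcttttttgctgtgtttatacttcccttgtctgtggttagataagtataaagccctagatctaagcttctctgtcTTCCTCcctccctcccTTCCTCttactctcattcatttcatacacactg
IL12RB2: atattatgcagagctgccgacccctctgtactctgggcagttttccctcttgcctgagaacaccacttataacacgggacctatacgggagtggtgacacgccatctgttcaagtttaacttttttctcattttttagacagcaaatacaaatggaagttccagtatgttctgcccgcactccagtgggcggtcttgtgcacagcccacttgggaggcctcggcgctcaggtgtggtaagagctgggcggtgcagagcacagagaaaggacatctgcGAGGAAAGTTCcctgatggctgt
IL18BP: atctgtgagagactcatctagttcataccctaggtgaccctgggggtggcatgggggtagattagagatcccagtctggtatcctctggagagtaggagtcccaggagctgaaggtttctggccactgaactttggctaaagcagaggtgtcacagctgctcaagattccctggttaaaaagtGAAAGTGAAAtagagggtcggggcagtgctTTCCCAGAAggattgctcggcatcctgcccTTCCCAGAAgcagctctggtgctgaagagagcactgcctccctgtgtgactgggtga
IL1B: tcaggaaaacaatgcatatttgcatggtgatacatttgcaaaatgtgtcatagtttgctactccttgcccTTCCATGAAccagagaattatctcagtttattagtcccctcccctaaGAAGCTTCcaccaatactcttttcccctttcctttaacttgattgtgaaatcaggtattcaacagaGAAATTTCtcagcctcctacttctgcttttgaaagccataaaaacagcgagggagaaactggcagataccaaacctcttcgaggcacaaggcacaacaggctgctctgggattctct
IL6R: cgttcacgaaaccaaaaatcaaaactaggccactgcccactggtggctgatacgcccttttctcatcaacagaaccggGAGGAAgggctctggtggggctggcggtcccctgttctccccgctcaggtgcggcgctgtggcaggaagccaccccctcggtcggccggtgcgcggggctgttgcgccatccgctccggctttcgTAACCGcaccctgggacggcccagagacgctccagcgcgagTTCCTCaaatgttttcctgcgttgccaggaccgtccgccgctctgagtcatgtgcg

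The IL7R window holds 3 matches to GAGGAA and 1 to TGATGNAA, the latter from base -216 to -209 relative to the start. In the IL12RB2 window a GAGGAA match and a GAANNTTC match overlap downstream of the start, from base 28 to 38. The IL18BP window holds 1 match to the interferon-stimulated element from base -67 to -58 and 2 TTCNNNGAA matches, and 3.57% of all promoter windows hold the former. The IL1B window holds 2 GAANNTTC matches, present in 6.77% of all windows, and 1 TTCNNNGAA match, present in 7.66%. The IL6R window holds 1 TAACNG match, present in 20.8% of all windows, and 2 GAGGAA matches. Of the 27 tested members 23 had a window. A GAGGAA match was found for 6 of 8 genes called higher, 1 of 6 called lower and 4 of 9 not called, against 31.8% of all 27305 genes with a window. TAACNG was found for 2 of 8, 2 of 6 and 1 of 9, against 24.3% of all genes. GAANNTTC was found for 2 of 8, 1 of 6 and 0 of 9, against 8.21% of all genes, and TGACNNNGC for 2 of 8, 0 of 6 and 2 of 9, against 16.1%. TGATGNAA was found for 2 of 8, 0 of 6 and 1 of 9, against 4.46%. The interferon-stimulated element was found for 1 of 8, 1 of 6 and 0 of 9, against 4.38%, and TTCNNNGAA for 2 of 8, 1 of 6 and 1 of 9, against 9.38%. Genes with several starts have several windows, so these counts are a description only.

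WFA and DMSO libraries were compared by edgeR's quasi-likelihood test over 12854 genes, with Benjamini-Hochberg adjustment over all of them, and a gene is called at an adjusted p-value under 0.05. Standard errors (SE) are on the log2 scale. Of the 27 tested members 17 were called, 10 higher and 7 lower with WFA. This is 63.0% of them, against 50.5% of all tested genes, of which 25.8% were called higher and 24.7% lower. Their median log2 fold change was 0.07 and that of all tested genes 0.02, and the median sizes without sign were 0.49 and 0.36. Over 2-fold, 7 members were higher and 2 lower, against 8.1% and 5.2% of all tested genes. The WFA and DMSO libraries did not overlap for 18 of the 27 members, against 58.1% of all tested genes. For each of the 17 called members the groups did not overlap. The same direction in all 3 pairs of same-numbered libraries follows from this and adds no support. In such bulk samples fewer cells of a type and less RNA per cell cannot be told apart. An exact permutation test of 3 libraries against 3 cannot give a p-value under 0.1, so single genes rest on the edgeR fit.

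**Figure D2:**
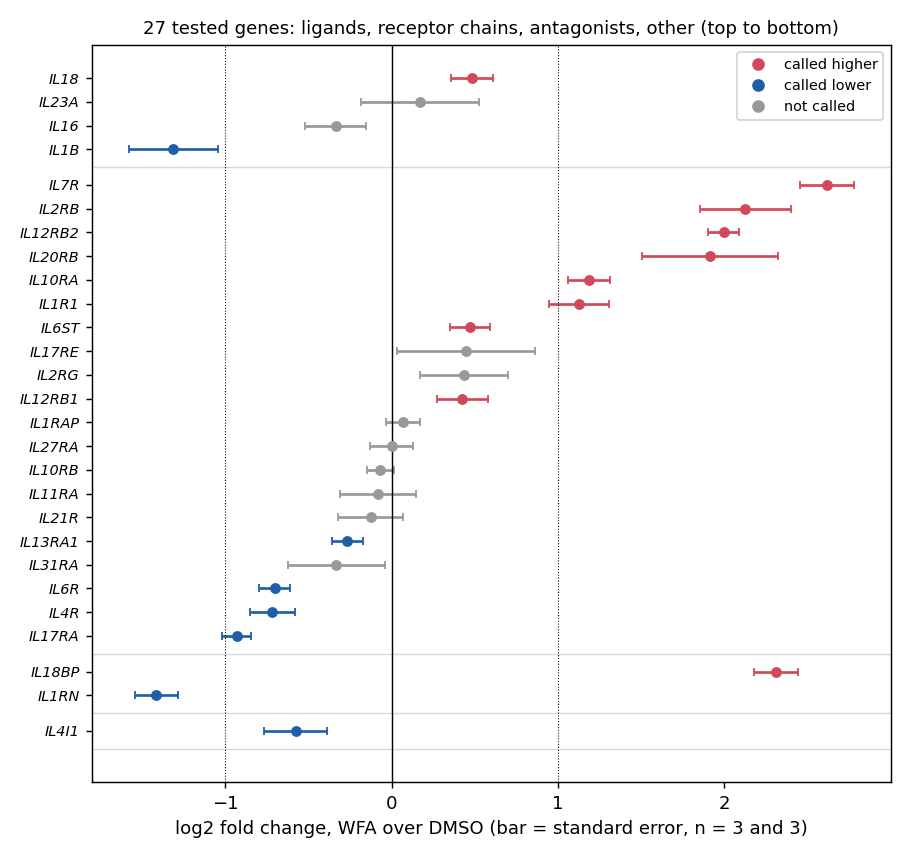
Log2 fold changes of WFA over DMSO are plotted for the 27 tested members grouped by role, with standard errors from the edgeR fit and dotted lines at 2-fold. Points over 2-fold higher are IL18BP and 6 receptor chains, and those over 2-fold lower are IL1B and its antagonist IL1RN.

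Members of the IL-1 family moved in both directions. Of its 21 genes 6 were tested, and 3 were higher, 2 lower and 1 was not called. Over all tested genes 25.8% were called higher and 24.7% lower. IL1B, the secreted ligand of the IL-1 receptor, had 3.45, 2.92 and 4.25 CPM in DMSO replicates 1, 2 and 3 and 1.14, 1.37 and 1.77 CPM in the WFA replicates. Every WFA library was below every DMSO library, from counts of at most 51. The log2 fold change was -1.31 (edgeR adjusted p = 0.000861, SE 0.27). IL1RN encodes the antagonist that occupies the IL-1 receptor without signalling. It had 45.8, 42.4 and 51.8 CPM with DMSO and 15.2, 20.9 and 16.4 CPM with WFA, again without overlap, and a log2 change of -1.41 (edgeR adjusted p = 5.26e-07, SE 0.13). Ligand and antagonist thus fell by factors of 2.48 and 2.67. The antagonist was the more abundant transcript in both groups, with 14.3 against 1.14 CPM per kb of exon in DMSO and 5.37 against 0.461 CPM per kb in WFA libraries.

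IL1R1, the signalling chain that binds IL-1, went the other way. It had 6.47, 5.92 and 4.67 CPM with DMSO and 14.9, 11.3 and 11.3 CPM with WFA, a log2 change of 1.13 (edgeR adjusted p = 9.54e-05, SE 0.18). All WFA libraries lay above all DMSO libraries. Its partner IL1RAP, which is shared with the receptors of IL-33 and IL-36, was not called, with 51.7 ± 6.6 CPM with DMSO and 54.2 ± 2.79 CPM with WFA (SD, n = 3 each). IL1R2, a decoy that binds IL-1 without signalling, was not tested in the main fit. It had 0 counts in all DMSO libraries and 2, 3 and 5 counts in the WFA libraries. Without the filter on low counts it was called from these few counts (edgeR adjusted p = 0.00609). DESeq2 gave it no adjusted p-value.

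IL-18, a relative of IL-1β that is also made as an inactive precursor, rose together with its soluble inhibitor. The ligand gene IL18 had 16.8 ± 1.99 CPM with DMSO and 23.5 ± 1.79 CPM with WFA (SD, n = 3 each), a log2 difference of 0.49 (edgeR adjusted p = 0.00495, SE 0.13). IL18BP, the binding protein that keeps IL-18 from its receptor, had 11.1, 11.1 and 8.92 CPM with DMSO and 47.0, 49.5 and 58.7 CPM with WFA. All WFA libraries were far above all DMSO libraries. This was the second largest rise among the members, with a log2 change of 2.31 (edgeR adjusted p = 3.08e-09, SE 0.13). IL18BP shares 675 exon bases, 15.6% of its exon length in GENCODE 29, with NUMA1 on the opposite strand, and the counting is not stated to use strand. NUMA1 had a log2 change of 0.22 (edgeR adjusted p = 0.0452, SE 0.09). The chains of the IL-18 receptor itself were not tested. IL18R1 had 5, 0 and 6 counts with DMSO and 1, 4 and 1 with WFA, and IL18RAP had 3, 2 and 2 and then 0 in each WFA library.

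These genes lie in clusters on chromosome 2. The ligand cluster between positions 112773925 and 113134014 (GRCh38) holds 9 members, of which IL1B and IL1RN were tested and the other 7 had at most 2 counts in any library. The receptor cluster between positions 101991960 and 102452565 holds 6 members, of which only IL1R1 was tested. IL18 and IL18BP lie apart from both, on chromosome 11.

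The largest rise among the members was that of IL7R, which encodes the IL-7 receptor α chain and also serves the receptor of TSLP. It had 3.80, 4.42 and 3.0 CPM with DMSO and 24.3, 21.1 and 23.9 CPM with WFA. The groups were far apart, with counts of 36 to 56 against 257 to 297. The log2 fold change was 2.62 (edgeR adjusted p = 8.14e-09, SE 0.16), a 6.14-fold rise. IL2RB, the β chain by which IL-2 and IL-15 signal, rose from a lower level. It had 1.13, 0.948 and 1.17 CPM with DMSO and 4.49, 3.71 and 6.14 CPM with WFA, a log2 change of 2.13 (edgeR adjusted p = 1.49e-05, SE 0.28). IL2RG, the common γ chain with which both of these chains pair, was not called, with 1.44 ± 0.05 CPM with DMSO and 1.96 ± 0.173 CPM with WFA (SD, n = 3 each, log2 fold change 0.44, SE 0.26, edgeR adjusted p = 0.186). Its WFA libraries all lay above its DMSO libraries, with 22 to 24 counts against 18 to 20. The T cell markers CD3D, CD3E and CD3G were at or under 3 counts in every library, as given above. The NK cell list lay between 9.52 and 11.5 CPM with DMSO and between 8.02 and 14.2 CPM with WFA. Which cells the IL7R and IL2RB counts came from was not tested. The α chains IL2RA, with no count, and IL15RA, with 6 to 9 counts in DMSO and 7 to 15 in WFA libraries, were not tested.

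IL-4 and IL-13 receptor chains were lower. IL4R, the α chain of both forms of IL-4 receptor, had 27.9, 32.9 and 26.3 CPM with DMSO and 15.9, 20.6 and 16.4 CPM with WFA, without overlap. Its log2 fold change was -0.72 (edgeR adjusted p = 0.000402, SE 0.13). IL13RA1, its partner in the type II receptor that also binds IL-13, had 147 ± 7.84 CPM with DMSO and 122 ± 11.2 CPM with WFA (SD, n = 3 each), a log2 difference of -0.26 (edgeR adjusted p = 0.0237, SE 0.09). This smaller change did not pass the threshold without DMSO replicate 1, DMSO replicate 2 or WFA replicate 3 (edgeR adjusted p = 0.0592, 0.0788 and 0.101). IL4I1 fell too, from 6.82, 5.84 and 6.00 CPM with DMSO to 4.74, 3.71 and 4.09 CPM with WFA (log2 fold change -0.58, SE 0.19, edgeR adjusted p = 0.0193). Without DMSO replicate 1, WFA replicate 2 or WFA replicate 3 its adjusted p was 0.0726, 0.0731 and 0.0504. IL4I1 shares 336 exon bases with the nuclear pore gene NUP62 on the same strand, and NUP62 had a log2 change of -0.72 (edgeR adjusted p = 5.26e-06, SE 0.08). The part of shared reads in the IL4I1 value was not tested.

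In the IL-6 and IL-12 family 8 members were tested, and 3 were higher, 1 was lower and 4 were not called. Over all tested genes 25.8% were called higher and 24.7% lower. IL6R, the chain that binds IL-6, was the most counted member and held between 45.7% and 48.4% of all member counts in DMSO and between 29.8% and 33.0% in WFA libraries. It had 952, 961 and 1069 CPM with DMSO and 571, 636 and 626 CPM with WFA. These values do not overlap, and the log2 fold change was -0.70 (edgeR adjusted p = 1.94e-05, SE 0.09). IL6ST encodes gp130, the signalling chain shared by IL-6, IL-11, IL-27 and others, and it rose from 74.7 ± 9.75 CPM with DMSO to 104 ± 16.8 CPM with WFA (SD, n = 3 each, log2 fold change 0.47, SE 0.12, edgeR adjusted p = 0.004). The binding and signalling chains of the IL-6 receptor therefore changed in opposite directions, the only such case among 12 receptor pairs with both chains tested. IL11RA and IL27RA, which also pair with gp130, were not called, with log2 fold changes of -0.08 (SE 0.23) and 0.002 (SE 0.13). ADAM17, the protease known to shed the IL-6 receptor from the cell surface, rose with a log2 change of 0.76 (edgeR adjusted p = 7.69e-06, SE 0.09).

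IL12RB2, the chain of the IL-12 receptor that recruits STAT4, had the smallest p-value of all members. It had 103, 89.2 and 91.5 CPM with DMSO and 406, 371 and 355 CPM with WFA. Replicates of a group were close together and the groups far apart, with a log2 change of 2.0 (edgeR adjusted p = 6.81e-10, SE 0.09), a 3.99-fold rise. IL12RB1, its partner in the IL-12 receptor, had 7.84 ± 1.04 CPM with DMSO and 10.6 ± 0.319 CPM with WFA (SD, n = 3 each, log2 fold change 0.42, SE 0.15, edgeR adjusted p = 0.0319). That call was lost with total counts in place of TMM (edgeR adjusted p = 0.0764), in DESeq2 (adjusted p = 0.0896) and when any library but DMSO replicate 1 was left out (edgeR adjusted p between 0.0525 and 0.109). The ligands were low. IL12B had at most 2 counts and IL12A had 8, 0 and 9 counts with DMSO and 0, 1 and 1 with WFA. IL12A was called lower without the filter on low counts (edgeR adjusted p = 0.0131) but not by DESeq2 (adjusted p = 0.0992). IL23A, whose product pairs with that of IL12B to form IL-23, was not called (log2 fold change 0.17, SE 0.36). IL31RA was not called either (log2 fold change -0.33, SE 0.29).

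In the IL-10 class the ligand-binding chain IL10RA had 23.0, 21.1 and 21.6 CPM with DMSO and 46.7, 43.1 and 60.3 CPM with WFA. The groups did not overlap, and the log2 fold change was 1.19 (edgeR adjusted p = 2.19e-06, SE 0.13). IL10RB, the accessory chain that IL-10 shares with IL-22 and other cytokines, was more abundant and was not called, with 210 ± 5.91 CPM with DMSO and 200.5 ± 8.01 CPM with WFA (SD, n = 3 each, log2 fold change -0.07, SE 0.08). IL20RB, a chain of the receptors for IL-19, IL-20 and IL-24, had 0.915, 2.05 and 1.33 CPM with DMSO and 3.10, 3.87 and 9.40 CPM with WFA. Its log2 fold change was 1.91 (edgeR adjusted p = 0.00115, SE 0.41), and WFA replicate 3 had 101 counts against 38 and 48 in the others. Without that library the log2 fold change was 1.29 and was still called. IL20RB shares 66 exon bases, 2.7% of its exon length, with NCK1 on the same strand, which had at most 669 counts. The part of shared reads in the IL20RB value was not tested. IL20RA, the partner of IL20RB, was not tested, with 4, 9 and 4 counts in DMSO and 1, 3 and 0 in WFA libraries.

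IL17RA, the chain common to the receptors of the IL-17 cytokines, fell from 324, 329 and 349 CPM to 169, 189 and 167 CPM. The groups did not overlap, and the log2 fold change was -0.93 (edgeR adjusted p = 5.90e-07, SE 0.09). Of its partners only IL17RE was tested, and it was not called from at most 20 counts. IL17RC had 2 to 6 counts in any library. IL17RB, a chain of the IL-25 receptor, had 13, 9 and 17 counts with DMSO and 8, 4 and 4 with WFA, and was called lower only without the filter on low counts (edgeR adjusted p = 0.0464, DESeq2 adjusted p = 0.152). The remaining tested members were IL21R, which was not called (log2 fold change -0.13, SE 0.19), and the ligand IL16, a chemoattractant that acts through CD4. IL16 had 23.3 ± 4.77 CPM with DMSO and 18.4 ± 4.82 CPM with WFA (SD, n = 3 each), and was not called (log2 fold change -0.34, edgeR adjusted p = 0.135). With the replicate number as a block it was called (log2 fold change -0.35, edgeR adjusted p = 0.00644), being lower with WFA in each of the 3 pairs. IL16 shares 36.0% of its exon length with STARD5 on the opposite strand, which had at most 47 counts.

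**Figure D3:**
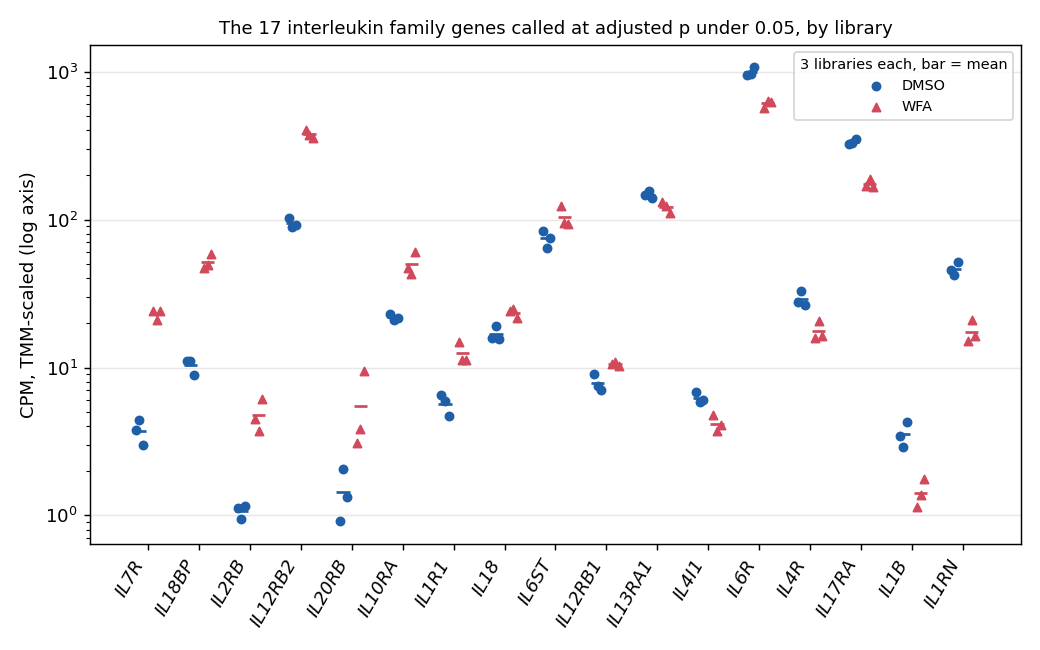
TMM-scaled CPM is shown on a log axis for the 17 called members in each of the 3 DMSO (circles) and 3 WFA (triangles) libraries, ordered by fold change, with bars at the means. For every gene the libraries of one group lie wholly above those of the other, and IL20RB has the widest spread among the WFA libraries.

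The change in levels altered the order of receptor chains in these cells. Per kb of exon, the highest with DMSO was IL6R at 154 ± 10.1 CPM per kb, followed by IL10RB at 46.2 ± 1.30, IL17RA at 37.0 ± 1.5, IL13RA1 at 33.6 ± 1.79 and IL12RB2 at 21.4 ± 1.62 (SD, n = 3 each). Neighbours in this order did not overlap between libraries. With WFA, IL12RB2 came second at 85.2 ± 5.90 CPM per kb, and its libraries, between 80.2 and 91.7, overlapped those of IL6R, between 88.5 and 98.6. IL10RB, IL13RA1 and IL17RA followed at 44.1 ± 1.75, 27.9 ± 2.56 and 19.4 ± 1.33 CPM per kb (SD, n = 3 each). The lowest tested chain in both groups was IL17RE, at 0.185 CPM per kb with DMSO and 0.254 with WFA, and its libraries overlapped those of IL2RB with DMSO and those of IL31RA with WFA. Exon lengths are unions over GENCODE 29 transcripts, which the cells may not all use, so the order is a description.

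**Figure D4:**
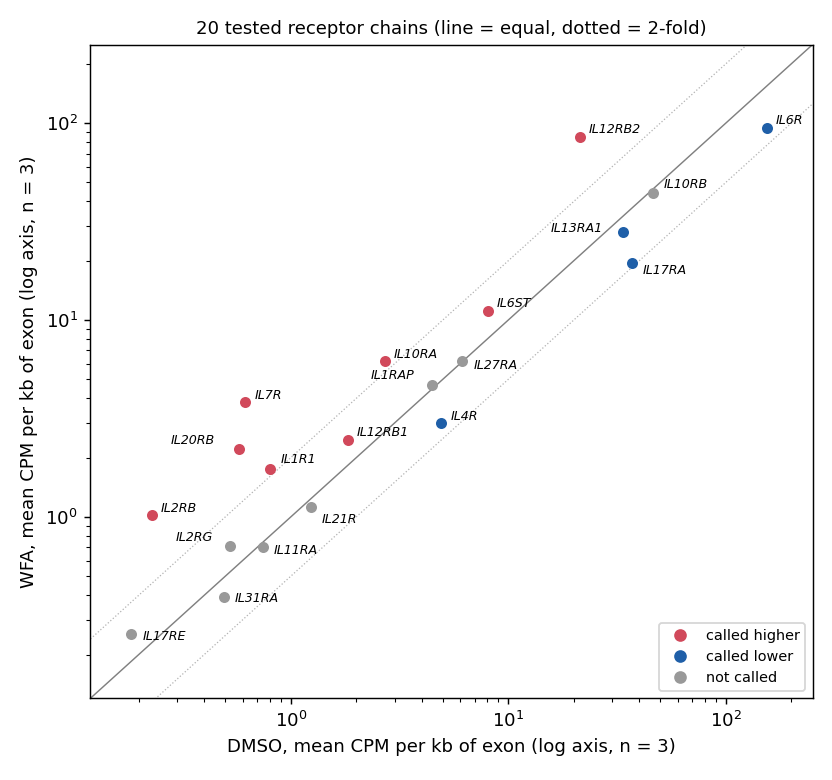
Mean CPM per kb of exon with WFA is plotted against DMSO for the 20 tested receptor chains on log axes, with a line of equality and dotted lines at 2-fold. IL12RB2 rises from 21.4 to 85.2 CPM per kb and comes close to IL6R, and IL7R, IL2RB and IL20RB lie above the dotted line at low levels.

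Taken as receptors, most pairs with both chains tested had only 1 chain called. Over all tested genes 50.5% were called, and a chain not called is not shown to be unchanged. Of 22 known chain pairs examined, both chains were tested for 12. In 2 of these both chains were called in one direction, namely IL12RB1 with IL12RB2 upward and IL4R with IL13RA1 downward. The calls of IL12RB1 and IL13RA1 were lost under some alternatives, as given above. In 1 they were called in opposite directions, in 8 only 1 chain was called, and in 1, IL21R with IL2RG, none was. A further 9 pairs had 1 tested chain, and the IL-18 receptor had none. Several pairs share a chain, so they are not independent of one another.

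Genes that carry interleukin signals but no IL symbol were taken from whole-pathway lists, which were not trimmed by how the genes moved but were drawn up with earlier results of these data known. Of 18 tested adaptors, kinases and inflammasome genes of IL-1 signalling, 10 were higher and 4 lower, and their median log2 fold change was 0.28. Over all tested genes 25.8% were higher and 24.7% lower. With the replicate block 12 were higher and 4 lower, and the block raised the calls over all tested genes from 6489 to 7585. CASP1, the protease that matures IL-1β and IL-18, rose with a log2 change of 1.05 (edgeR adjusted p = 1.1e-07, SE 0.08). PELI2 and TRAF6, ubiquitin ligases of the pathway, and CASP4 rose by 1.09, 0.81 and 0.81 on the log2 scale. NLRP3, the inflammasome sensor, and IRAK3, which restrains the pathway, fell, both with log2 fold changes of -0.57 (SEs 0.10 and 0.09). Of 24 tested genes of JAK, STAT, SOCS and related proteins, 9 were higher and 4 lower, with a median of 0.18, and the 54.2% called is near the 50.5% of all tested genes. With the replicate block 11 were higher and 6 lower. SOCS3, a feedback inhibitor of gp130 signalling, rose from 21, 31 and 35 counts to 108, 116 and 119, with a log2 change of 2.11 (edgeR adjusted p = 2.65e-06, SE 0.23). STAT2 and STAT6, the latter the factor activated by IL-4, rose by 1.11 and 0.91 on the log2 scale, while JAK2 fell, with a log2 fold change of -0.72.
A list of partner chains, ligands and related proteins without an IL symbol had 5 tested genes, CSF2RB, TSLP, CD4, ADAM17 and SORT1. Of these 3 were higher and 1 lower, with and without the block. This is 80% called, against 50.5% of all tested genes. The called genes include the protease ADAM17, so the share does not describe receptor chains and ligands alone. TSLP, the cytokine that signals through IL7R and a second chain, rose from 15, 19 and 21 counts to 45, 38 and 47 (log2 fold change 1.37, SE 0.27, edgeR adjusted p = 0.000618). CSF2RB, the common β chain of the IL-3 and IL-5 receptors, rose with a log2 change of 0.46 (edgeR adjusted p = 0.000774, SE 0.09), and SORT1 fell with -0.27 (SE 0.09, edgeR adjusted p = 0.0158). Of 6 tested genes of IL-17 receptor signalling 3 were called, all higher, which is 50% against 50.5% of all tested genes. The replicate block added ZC3H12A as higher (edgeR adjusted p = 0.00777, against 0.0549 without the block) and TRAF3 as lower (edgeR adjusted p = 0.0499, against 0.142). TRAF2, TRAF3IP2 (ACT1, the receptor's adaptor) and TRAF5 had log2 fold changes of 1.14, 0.46 and 0.95.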

How the data were processed

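TruSeq RNA v2 libraries were made from THP1 total RNA and sequenced. The authors deposited raw integer counts for each gene symbol. The submitters' processing notes name bcl2fastq 2.19, Trimmomatic, Bowtie2, Picard, featureCounts and DESeq2 and the build hg38, without their roles. The annotation and the handling of strand and multiply mapped reads are not given in the sources used here. The deposited table also holds 6 scaled columns and the authors' own comparison (fold changes, p-values, dispersions), which were not used.

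Genes were tested with edgeR 4.0.16 (R 4.3.3), using filterByExpr (minimum count 10), TMM normalization and the quasi-likelihood test of WFA against DMSO without a block, with Benjamini-Hochberg adjustment over 12854 genes and a threshold of 0.05. Standard errors are the log2 fold change divided by the root of the F statistic. CPM of single genes uses TMM-scaled library sizes. Summed CPM of marker lists and the floor in CPM use total counts without TMM scaling. Totals of 11006035 to 13872810 counts set the precision. Same-numbered libraries share a date-like number in their deposited descriptions. They also deviated together from their group means (across-gene r of 0.217, 0.333 and 0.245). The replicate number was therefore also fitted as a block, while the main fit is unpaired. DESeq2 1.42.0, other scalings and filters, a robust fit and leaving out each library were the alternatives. Members and lists were chosen with earlier results of these data known. Library values are given for members over 2-fold and for the leading member of each role. Some genes of the pathway and marker lists are not reported here by name.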

Additional observations from a re-analysis of the deposited data

How the results depend on the processing

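The number of members called was 17 in the main fit and 18 with the replicate block. In the block fit edgeR had 2 residual degrees of freedom per gene and an infinite prior. Variances in that fit were therefore taken from the trend over all genes, not from single genes. IL16 was the member gained, and the block changed no other call among the members. Called pathway genes rose in number from 34 to 42 with the block, and called genes over all those tested from 6489 to 7585. Called members numbered 16 with total counts and in DESeq2's Wald test, 14 with a minimum count of 50 and 22 without a filter. Leaving out single libraries gave 14 to 17. Of 100 counts of genes or members under alternatives, 99 stayed within 1.5 times the main count. The exception was the number of members called lower, 7 in the main fit and 11 without the filter on low counts, where 18328 genes were tested. Those added to the lower calls were IL16, IL12A, IL17RB and IL18RAP.

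Of 370 values of single members under alternatives, 342 kept their sign and their side of the threshold, 13 lost the call, all of IL12RB1, IL13RA1 or IL4I1, 4 gained it, all of IL16, and 11 changed sign. Those that changed sign were members not called in any of these fits. IL27RA, at 0.002, had log2 fold changes of -0.010 with RLE size factors, -0.083 with total counts, -0.011 without the filter and -0.018 in DESeq2, and between -0.086 and 0.085 with a library left out. IL1RAP was at -0.018 with total counts and between -0.018 and 0.172 with a library left out. With a library left out IL11RA ranged from -0.19 to 0.029 and IL23A from -0.313 to 0.421. The cause of these shifts was not tested. Total counts in place of TMM moved the median of all tested genes by -0.085.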

Other observations

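CXCL8, the chemokine once named IL8, falls outside the naming rule and was chosen after its values were seen. It had 133, 84 and 182 counts in DMSO and 142, 104 and 188 in WFA libraries, and was not called, with a log2 change of 0.26 (edgeR adjusted p = 0.446, SE 0.27). The groups overlapped. CLCF1, a cytokine of the IL-6 class, was below the filter and was also picked after its values were seen. CLCF1 had 3, 4 and 2 counts with DMSO and 13, 9 and 12 with WFA. OSM, another cytokine of that class below the filter, had 12, 9 and 19 counts with DMSO and 3, 6 and 4 with WFA. EBI3, a subunit of IL-27 and IL-35, had at most 3 counts in any library.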
